A study of Rattus norvegicus with 7 samples.

Results

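The 8 genes of aldosterone-driven sodium uptake described here in rat kidney nuclei are Scnn1a, Scnn1b, Scnn1g, Nr3c2, Hsd11b2, Sgk1, Nedd4l and Atp1b1. They were chosen by symbol among 25399 genes in the count matrices, and each symbol matched 1 gene. They were followed in 4 classes of distal nuclei, which held 6368 of 31227 retained nuclei (20.4%), and across libraries of rats with 1 kidney and rats with 2 kidneys.

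Aldosterone enters tubule cells and binds the mineralocorticoid receptor, encoded by Nr3c2, which then acts as a transcription factor. Cortisol and corticosterone bind the same receptor, and the enzyme 11-beta-hydroxysteroid dehydrogenase type 2, encoded by Hsd11b2, inactivates them in cells that respond to aldosterone. The kinase encoded by Sgk1 is induced by the receptor and phosphorylates the ubiquitin ligase encoded by Nedd4l, which otherwise removes the epithelial sodium channel from the apical membrane. The channel is built of alpha, beta and gamma subunits, encoded by Scnn1a, Scnn1b and Scnn1g, and the basolateral sodium pump, whose beta 1 subunit is encoded by Atp1b1, returns the sodium to the blood. In the kidney this machinery is known from the late distal convoluted tubule, the connecting tubule and the collecting duct.

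The rats belong to the HSRA model, a line in which some animals are born with a single kidney and which is studied for nephron deficit. The 1-kidney group held 3 libraries and the 2-kidney group held 4, numbers that match the HSRA-S (3) and HSRA-C (4) rats of the protocol text. All rats were 4 weeks old, no treatment is named in the labels, and the rats' sex was not stated. Nuclei were isolated from a central piece of stored kidney that held both cortex and medulla, and libraries followed the version 3.1 chemistry of 10x Genomics, which counts the 3′ ends of RNAs. Each library was taken as 1 animal, since each title carries a number of its own, and p-values measure the spread between these libraries.

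The matrices held 37048 barcodes, 5293 per library on average, which is the number of cells per sample that the labels state. After filtering, 2263 to 5952 nuclei and 5581726 to 27069632 unique molecular identifiers (UMIs, counts of single RNA molecules) remained per library. Nuclei of 1-kidney libraries were shallower: their median was 1711 ± 263 UMIs per nucleus (SD, n = 3 libraries), against 2179 ± 262 in 2-kidney libraries (n = 4). The 2-kidney libraries 3 and 4 carry a library code, P1117B, that the other 5 do not, and no 1-kidney library carries it. Among retained nuclei, 116 barcode sequences occurred in more than 1 library. One unnamed cluster of 2939 nuclei stood apart with a median of 9147 UMIs and 38.9% of all UMIs. It held between 32.3% and 46.1% of the UMIs of each of the 8 genes, close to its share of all UMIs, and its make-up was not tested.

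The 4 distal classes were clusters named from marker genes, with the 8 genes kept out of the clustering. The distal convoluted tubule class (1640 nuclei) was named by Slc12a3, the thiazide-sensitive cotransporter, at 127 UMIs per 10000, against 7.20 in all other nuclei. The connecting tubule class (1234 nuclei) rested on 3 markers: Calb1 at 22.1 per 10000 against 1.00, the sodium-calcium exchanger gene Slc8a1, and the calcium channel gene Trpv5. The principal cell class (1762 nuclei) was named by the water channel genes Aqp2, Aqp3 and Aqp4 among others, with Aqp4 at 3.75 per 10000 against 0.0695. The intercalated class (1732 nuclei) joined a Slc4a1-high cluster of 996 nuclei and a Slc26a4-high cluster of 736. Of the 25 markers listed for these classes, 22 were higher in their class than in other nuclei in 7 of 7 libraries, and Pvalb, S100g and Egfem1 had nearly no UMIs in any nucleus.

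Levels are given as CPM: the UMIs of a gene in all nuclei of a class in 1 library, divided by all UMIs of that class and library and scaled to the same total everywhere. Different genes are not ranked against each other, since counts from nuclei also depend on the length of a gene. UMIs of proximal tubule markers were found in all 4 classes, at a higher summed level in 1-kidney libraries on average. Of the 9 markers, 9 had a higher mean in 1-kidney principal cells and 6 in 1-kidney connecting tubule. In the distal convoluted tubule and in intercalated nuclei 8 did. Their part in the results below was addressed only by the subtraction described with Sgk1, which was run for all 8 genes. That subtraction cannot isolate the part of proximal tubule RNA. The subtracted high-UMI cluster also held UMIs of each of the 8 genes, close to its share of all UMIs, so their counts were reduced too. The summed level of 9 proximal tubule markers in principal cells was 16909 to 24582 CPM in 1-kidney libraries and 4223 to 16307 CPM in 2-kidney libraries. In the connecting tubule it was 16381 to 19568 CPM in 1-kidney and 8286 to 16741 CPM in 2-kidney libraries. In the distal convoluted tubule the ranges were 17081 to 18931 CPM in 1-kidney and 7054 to 17686 CPM in 2-kidney libraries, and in intercalated nuclei 16956 to 21292 CPM in 1-kidney and 8692 to 18970 CPM in 2-kidney libraries. Summed thick ascending limb markers averaged 820 CPM in 1-kidney and 1238 CPM in 2-kidney connecting tubule. In the same order they averaged 1728 and 2520 CPM in the distal convoluted tubule and 1147 and 1750 CPM in intercalated nuclei. In principal cells they averaged 1284 CPM in 1-kidney and 1125 CPM in 2-kidney libraries. The part of these markers in the results was not tested.

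The beta and gamma subunits of the channel had the most restricted pattern of the 8 genes by class. Scnn1b averaged 456 ± 83.4 CPM in connecting tubule and 400.1 ± 85.5 CPM in principal cells (SD, n = 7 libraries), against 51.3 ± 17.2 CPM in the distal convoluted tubule and 43.7 ± 8.33 CPM in intercalated nuclei. Principal cells were above the distal convoluted tubule in 7 of 7 libraries, by 7.79-fold. Connecting tubule and principal cells did not differ beyond their spread, and neither did the distal convoluted tubule and intercalated nuclei. Scnn1g averaged 542 ± 89.2 CPM in principal cells, 498 ± 72.1 CPM in connecting tubule, 26.3 ± 13.9 CPM in intercalated nuclei and 25.3 ± 11.99 CPM in the distal convoluted tubule. The step below connecting tubule was 18.9-fold and held in 7 of 7 libraries. Podocytes, which are not known to use the channel, stood at 8.81 ± 4.04 CPM for Scnn1b and 6.38 ± 4.32 CPM for Scnn1g. Fibroblasts stood higher, at 30.5 ± 12.6 CPM for Scnn1b and 34.7 ± 15.4 CPM for Scnn1g. Their Scnn1g mean was above those of intercalated nuclei and the distal convoluted tubule.

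Scnn1b and Scnn1g shared their pattern over classes. Over the 14 named classes of nuclei, Scnn1g was the gene most like Scnn1b among 10140 genes, and Scnn1b the most like Scnn1g (Pearson r = 0.978 of log2(CPM + 1)). The correlation is a description: the 14 points come from the same 7 libraries. In the RefSeq annotation of rat assembly GRCr8 the pair are neighbours on chromosome 1, 91.2 kb apart with no annotated gene between them, while Scnn1a lies on chromosome 4. The next most like were Tspan1 (r = 0.950) and the sodium-proton exchanger gene Slc9a4 (r = 0.949) for Scnn1b, and Slc9a4 (r = 0.961) and Tmem45b (r = 0.940) for Scnn1g. Outside the distal classes the highest levels of the pair were in urothelium-like nuclei, at 160 ± 104 CPM for Scnn1b and 192 ± 61.0 CPM for Scnn1g in the 4 libraries with at least 20 such nuclei.

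Scnn1a, the alpha subunit needed for a conducting channel, reached further along the tubule. It averaged 534 ± 147 CPM in connecting tubule, 382 ± 86.9 CPM in the distal convoluted tubule, 319 ± 112 CPM in principal cells and 153 ± 60.2 CPM in intercalated nuclei. The thick ascending limb, which lies before the distal convoluted tubule, stood at 207 ± 67.2 CPM and podocytes at 19.2 ± 6.29 CPM. No neighbours in the order of the 4 distal classes were apart by more than their SDs, although principal cells were above intercalated nuclei in 7 of 7 libraries. In the distal convoluted tubule the alpha subunit was detected at a level between those of connecting tubule and principal cells, while the beta and gamma subunits were at levels like those of intercalated nuclei. The genes most like Scnn1a over classes were Wdr78 (r = 0.950), Nudt4 (r = 0.946) and Ppat (r = 0.942), and Scnn1a had r = 0.873 with Atp1b1.

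The receptor gene Nr3c2 was broad and the gene of its guarding enzyme was narrow. Nr3c2 averaged 2233 ± 644 CPM in connecting tubule, 2113 ± 782 CPM in principal cells, 1387 ± 359 CPM in the distal convoluted tubule and 1178 ± 386 CPM in intercalated nuclei. Its neighbours in this order overlapped within their SDs. Endothelium (408 ± 112 CPM) and podocytes (139 ± 50.7 CPM) stood lower. Within libraries, connecting tubule was above principal cells in 3 of 7. Principal cells were above the distal convoluted tubule in 6, and the distal convoluted tubule was above intercalated nuclei in 6. Hsd11b2 averaged 565 ± 114 CPM in connecting tubule and 347 ± 100.4 CPM in principal cells, apart beyond their SDs and in 7 of 7 libraries. Intercalated nuclei (62.2 ± 17.02 CPM) and the distal convoluted tubule (43.9 ± 40.0 CPM) were lower again, with the step below principal cells at 5.58-fold in 7 of 7 libraries. Fibroblasts, at 36.7 ± 23.6 CPM of Hsd11b2, were near the distal convoluted tubule. The genes most like Hsd11b2 were A4galt (r = 0.956), the potassium channel subunit gene Kcne1 (r = 0.950) and Prr35 (r = 0.924), and those most like Nr3c2 were Lmbr1l (r = 0.960), Defb1 (r = 0.944) and Sipa1l2 (r = 0.943).

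The same contrast held in the shares of nuclei with a UMI once depth was made equal. Each nucleus with at least 1000 UMIs was thinned to 1000, and the expected share with at least 1 UMI of a gene was computed. Nr3c2 was then found in 81.1% of connecting tubule nuclei, 79.0% of principal, 69.7% of distal convoluted and 68.3% of intercalated nuclei. Outside the distal classes it was found in 32.3% of endothelial nuclei and 14.0% of podocytes. Hsd11b2 was found in 41.3% of connecting tubule and 28.3% of principal nuclei, against 4.26% of distal convoluted and 5.81% of intercalated nuclei. In endothelial nuclei it was found in 2.02% and in podocytes in 1.10%. Without thinning the Hsd11b2 shares were 62.7%, 46.9%, 7.26% and 10.6% in the same 4 classes and 2.87% in podocytes, whose median depth of 2559 UMIs compares with 2154.5, 2002.5, 1686 and 1650.5 in the 4 classes. Of the nuclei with Nr3c2 at 1000 UMIs, 42.6% also had Hsd11b2 in connecting tubule and 29.9% in principal cells, but 4.47% in the distal convoluted tubule and 6.13% among intercalated nuclei. These shares were close to those of Hsd11b2 among all nuclei of each class, so they add little about single nuclei. A nucleus without a UMI at this depth may still hold the transcript.

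Detection of the channel subunits followed their summed levels. At 1000 UMIs Scnn1g was found in 37.1% of principal and 35.6% of connecting tubule nuclei, and in 2.37% of intercalated, 2.36% of distal convoluted, 1.68% of endothelial and 0.962% of podocyte nuclei. Scnn1a was found in 41.3% of connecting tubule, 30.8% of distal convoluted, 24.5% of principal and 13.7% of intercalated nuclei, against 3.45% of endothelial nuclei and 1.97% of podocytes. Of the nuclei with Scnn1a, 36.1% also had Scnn1g in connecting tubule and 45.3% in principal cells, against 2.67% in the distal convoluted tubule. Among all nuclei of these classes the Scnn1g shares were 35.6%, 37.1% and 2.36%.

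The 3 remaining genes were not restricted to the distal classes. Sgk1 averaged 323 ± 91.9 CPM in principal cells, 314 ± 128 CPM in connecting tubule, 239 ± 88.4 CPM in the distal convoluted tubule and 121 ± 37.4 CPM in intercalated nuclei, with each step within the SDs. Within libraries, Sgk1 was higher in principal cells than in connecting tubule in 2 of 7. It was higher in connecting tubule than in the distal convoluted tubule in 5, and higher there than in intercalated nuclei in 7. Endothelium stood at 276 CPM and podocytes at 36.0 CPM. Nedd4l averaged 2049 ± 404 CPM in principal cells and 1932 ± 475 CPM in intercalated nuclei, above connecting tubule (1091 ± 223 CPM) and the distal convoluted tubule (923 ± 201 CPM), and intercalated nuclei were above connecting tubule in 7 of 7 libraries by 1.77-fold. For Nedd4l, connecting tubule was above the distal convoluted tubule in 7 of 7 libraries, and principal cells above intercalated nuclei in 4. Atp1b1 averaged 2898 ± 325 CPM in connecting tubule, 2875 ± 585 CPM in the distal convoluted tubule, 2270 ± 295 CPM in principal cells and 1309 ± 271 CPM in intercalated nuclei. Pou3f3 (r = 0.958) and Hoxd8 (r = 0.946) were among the genes most like Atp1b1. Reps2, Rab11fip5 and Wdtc1 were most like Sgk1 (r = 0.926, 0.908 and 0.880), and Mark3, Tdrd9 and Rnf128 most like Nedd4l (r = 0.884, 0.828 and 0.821).

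The share of each gene's UMIs that came from the 4 distal classes orders the genes by restriction to them. It was 53.9% for Scnn1g, 52.0% for Scnn1b, 48.2% for Hsd11b2, 38.7% for Nr3c2 and 36.0% for Scnn1a, against 12.6% of all UMIs. For Atp1b1 (17.3%), Sgk1 (14.0%) and Nedd4l (13.2%) the share was near that of all UMIs.

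**Figure D1:**
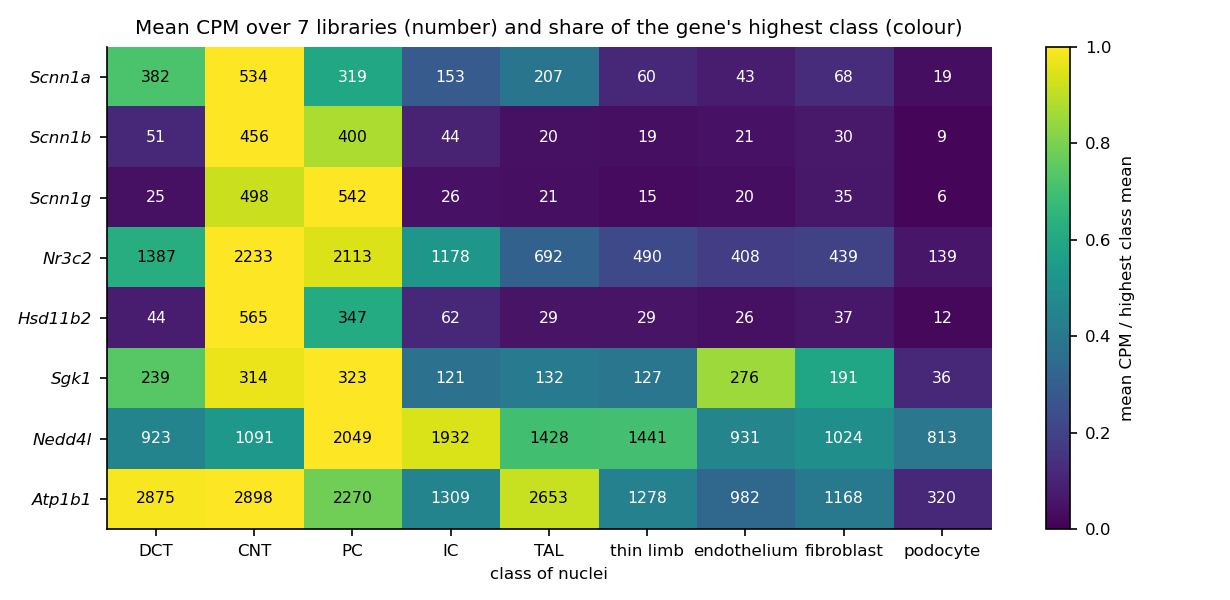
Mean CPM of each gene over 7 libraries (printed number) in 9 classes of nuclei, with colour giving the level as a share of the gene's highest class among those shown. Scnn1b, Scnn1g and Hsd11b2 are bright in connecting tubule (CNT) and principal cells (PC) alone. Scnn1a also reaches the distal convoluted tubule (DCT), and Nr3c2 reaches both the distal convoluted tubule and intercalated nuclei (IC). Sgk1, Nedd4l and Atp1b1 spread over more classes (TAL, thick ascending limb).

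The 1-kidney and 2-kidney rats were compared by the number of kidneys in the labels, which give no nephron number. UMIs were summed per library and class and tested across all genes with edgeR's quasi-likelihood test with Benjamini-Hochberg adjustment, 3 libraries against 4, and a gene was called at an adjusted p under 0.05. All 8 genes passed the filter on low counts in all 4 classes. In the connecting tubule 1 of the 8, Sgk1, was called, where 0.179% of the 7275 genes tested were called. In the distal convoluted tubule, principal cells and intercalated nuclei none of the 8 was called, and 0% of the genes tested were (0 of 7128, 8459 and 7357). With the threshold on the unadjusted p, 1069, 1454 and 979 genes passed in these 3 classes, and DESeq2 called 26, 159 and 16 genes.

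Sgk1 was higher in 1-kidney libraries in all 4 distal classes. In connecting tubule its level was 511, 395 and 425 CPM in 1-kidney libraries, against 244, 230, 183 and 209 CPM in 2-kidney libraries. The lowest 1-kidney library was above the highest 2-kidney library. The means were 444 ± 60.3 CPM (SD, n = 3) and 216 ± 26.6 CPM (SD, n = 4), and Sgk1 rose 2.07-fold in 1-kidney connecting tubule (log2 1.05 ± 0.18 SE, adjusted p = 0.0459 by edgeR). By p it ranked 1 of 7275 genes. Connecting tubule nuclei had a median of 1784 UMIs in 1-kidney and 2537 in 2-kidney libraries. At an equal depth of 1000 UMIs, 34.3% ± 3.76 of connecting tubule nuclei had a Sgk1 UMI in 1-kidney libraries and 18.6% ± 1.97 in 2-kidney libraries. Podocytes had 5.65% ± 1.24 in 1-kidney and 2.88% ± 0.602 in 2-kidney libraries. Endothelial nuclei had 25.4% ± 1.90 in 1-kidney and 18.6% ± 1.37 in 2-kidney libraries.

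The call on Sgk1 in connecting tubule sits close to the threshold. Without the P1117B libraries the log2 fold was 0.89 (adjusted p = 0.0689 by edgeR, 3 libraries against 2), and with the library code as a term it was 0.89 (adjusted p = 0.0663 by edgeR). Leaving out 1 library at a time gave log2 folds of 0.94 to 1.13 with adjusted p between 0.0242 and 0.342 by edgeR. The call was lost without any of the 3 1-kidney libraries (adjusted p = 0.342, 0.202 and 0.0856 by edgeR) and without 2-kidney libraries 3 and 4 (adjusted p = 0.144 and 0.0858 by edgeR). When the profile of the high-UMI cluster was subtracted so that the proximal tubule markers came to 0, which took 30.6% to 40.6% of connecting tubule UMIs in 1-kidney and 27.5% to 42.1% in 2-kidney libraries, the log2 fold was 1.12 (adjusted p = 0.181 by edgeR).

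In the other distal classes Sgk1 did not reach the threshold. Principal cells had 433, 393 and 394 CPM in 1-kidney libraries, against 324, 203, 308 and 206 CPM in 2-kidney libraries (log2 0.60 ± 0.22 SE, adjusted p = 0.204 by edgeR). The distal convoluted tubule had 359, 277 and 330 CPM in 1-kidney libraries, against 106, 197, 184 and 223 CPM in 2-kidney libraries (log2 0.85 ± 0.22 SE, adjusted p = 0.144 by edgeR). Intercalated nuclei had 148, 161 and 153 CPM in 1-kidney libraries, against 77.0, 135, 70.7 and 103 CPM in 2-kidney libraries (log2 0.72 ± 0.24 SE, adjusted p = 0.262 by edgeR). In each of these 3 classes the groups did not overlap. After the subtraction above, the intercalated value was log2 0.11. Within the intercalated class, the Slc26a4-high cluster had 154, 131 and 104 CPM in 1-kidney libraries, against 47.6, 55.9, 37.2 and 50.4 CPM in 2-kidney libraries, and in the Slc4a1-high cluster the groups overlapped.

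The direction was not particular to distal nuclei. Sgk1 had a log2 fold above 0 in all 9 classes tested, from 0.49 in endothelium to 1.08 in podocytes, with 0.89 in the thick ascending limb (adjusted p = 0.101 by edgeR) and 0.75 in fibroblasts (adjusted p = 0.0743 by edgeR). Outside the distal classes, all 8 genes were tested in the thick ascending limb, endothelium and fibroblasts, 5 in the thin limb and 4 in podocytes. None of those tested was called by edgeR, where 0% of tested genes were called in the thick ascending limb and the thin limb, 0.0606% in endothelium, 1.81% in fibroblasts and 0.0487% in podocytes. With the threshold on the unadjusted p, 4 of the 8 passed in the thick ascending limb, where 14.1% of tested genes did, and 3 in fibroblasts, where 18% did. Summed over all retained nuclei it stood at 281, 288 and 299 CPM in 1-kidney libraries, against 149, 180, 169 and 180 CPM in 2-kidney libraries. That sum mixes levels per nucleus with the shares of classes, and the edgeR result was log2 0.79 ± 0.14 SE with adjusted p = 0.160, while DESeq2 gave an adjusted p of 9.00e-05. Over all retained nuclei 0% of 14940 genes were called by edgeR, 20.5% (3070) passed on the unadjusted p, and DESeq2 called 485.

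Because Sgk1 is a textbook steroid-induced gene and the only one of the 8 called by edgeR, the 250 bases before each of its 3 annotated starts are shown, 5′ to 3′ on its minus strand, from RefSeq for assembly GRCr8. Capitals mark the TATA box letters TATAAA and the GC box letters GGGCGG, searched on both strands.
Sgk1 start 1, chr1:24807232-24807481: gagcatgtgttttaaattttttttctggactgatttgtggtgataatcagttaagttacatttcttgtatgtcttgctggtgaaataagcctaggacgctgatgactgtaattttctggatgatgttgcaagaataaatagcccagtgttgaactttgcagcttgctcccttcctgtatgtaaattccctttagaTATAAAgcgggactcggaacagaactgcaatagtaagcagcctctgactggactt
Sgk1 start 2, chr1:24805571-24805820: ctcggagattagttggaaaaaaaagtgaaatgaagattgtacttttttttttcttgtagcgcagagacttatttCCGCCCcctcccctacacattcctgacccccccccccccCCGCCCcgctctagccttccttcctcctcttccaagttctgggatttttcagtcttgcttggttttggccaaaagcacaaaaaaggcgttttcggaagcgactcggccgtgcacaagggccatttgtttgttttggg
Sgk1 start 3, chr1:24804832-24805081: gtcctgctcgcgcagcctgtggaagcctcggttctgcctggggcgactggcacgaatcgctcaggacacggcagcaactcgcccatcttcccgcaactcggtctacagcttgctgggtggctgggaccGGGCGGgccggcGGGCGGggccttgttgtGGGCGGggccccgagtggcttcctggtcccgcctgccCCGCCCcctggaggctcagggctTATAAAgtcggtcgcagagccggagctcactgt
TATAAA occurs before starts 1 and 3, beginning 55 and 33 bases upstream, and is held by 12.9% of 33469 rat promoter windows of this length on either strand. GGGCGG occurs 2 times before start 2 and 4 times before start 3, and is held by 30.5% of windows. The steroid receptor motif TGTTCT, on either strand, is in none of the 3 windows and in 17.5% of all windows. These letters missing from 250 bases say nothing about sites farther away. The 3′ counts do not tell which start was used. Of the 8 genes 4 matched a window, and those of Scnn1b, Scnn1g and Nedd4l, 1 each, hold no TGTTCT either.

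Scnn1a pointed the same way as Sgk1 and was not called by edgeR. This direction was not particular to distal nuclei either. The log2 fold of Scnn1a was above 0 in all 8 classes tested and was largest in fibroblasts, at 1.01 ± 0.35 SE (adjusted p = 0.137 by edgeR). In principal cells it stood at 446, 423 and 416 CPM in 1-kidney libraries, against 155, 290.5, 217 and 283.5 CPM in 2-kidney libraries, with no overlap (log2 0.82 ± 0.23 SE, adjusted p = 0.142 by edgeR). In connecting tubule it stood at 718, 571 and 733 CPM in 1-kidney libraries, against 377, 508, 405 and 425 CPM in 2-kidney libraries, again with no overlap (log2 0.66 ± 0.18 SE, adjusted p = 0.154 by edgeR). The intercalated groups did not overlap either (198 ± 43.8 CPM in 1-kidney and 119 ± 48.6 CPM in 2-kidney libraries), and the distal convoluted groups did (447 ± 37.8 CPM in 1-kidney and 333 ± 81.4 CPM in 2-kidney libraries). DESeq2 called Scnn1a in connecting tubule (adjusted p = 0.0475) and in principal cells (adjusted p = 0.0448). After the subtraction of the high-UMI profile the log2 folds were 0.67 in connecting tubule and 1.11 in principal cells, neither called by edgeR. In principal cells the subtraction was unequal between the groups. It took 31.6% to 51.0% of UMIs in 1-kidney and 17.9% to 34.4% in 2-kidney libraries, and its effect on the fold of 1.11 was not tested.

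Neither partner subunit shared this direction in the classes where the channel was high. Scnn1b in connecting tubule averaged 396 ± 59.0 CPM in 1-kidney and 501 ± 73.0 CPM in 2-kidney libraries (log2 -0.31 ± 0.19 SE, adjusted p = 0.414 by edgeR), and Scnn1g averaged 478 ± 69.2 CPM in 1-kidney and 512 ± 81.0 CPM in 2-kidney libraries (log2 -0.09 ± 0.19 SE, adjusted p = 0.844 by edgeR). In principal cells Scnn1b stood at log2 -0.22 ± 0.23 SE and Scnn1g at log2 -0.14 ± 0.22 SE, with overlapping groups for both. In intercalated nuclei Scnn1g had log2 -1.07 ± 0.42 SE (adjusted p = 0.305 by edgeR), on 113 UMIs in all. That value could be tested in 14 of 17 alternatives and ranged from -1.49 at 1000 UMIs or more per nucleus to -0.16 with predicted doublets kept. The summed level of the 7 principal cell markers in intercalated nuclei was 200.5 to 247 CPM in 1-kidney and 253 to 399 CPM in 2-kidney libraries, without overlap, and 0 of the 7 markers had a higher mean in 1-kidney libraries. Their part in the Scnn1g and Scnn1b values of this class was not tested. The difference between the subunits within a class was not tested.

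The receptor gene and the ligase gene pointed the other way. Nr3c2 in connecting tubule stood at 1519, 1325 and 2107 CPM in 1-kidney libraries, against 2737, 2376, 3141 and 2427 CPM in 2-kidney libraries (log2 -0.68 ± 0.20 SE, adjusted p = 0.177 by edgeR). No 1-kidney library reached the lowest 2-kidney library. The same held in the distal convoluted tubule, with 1022, 1075 and 1079 CPM in 1-kidney libraries, against 1749, 1591, 1905 and 1291 CPM in 2-kidney libraries (log2 -0.61 ± 0.19 SE, adjusted p = 0.179 by edgeR). It also held in intercalated nuclei, with 856, 741 and 937 CPM in 1-kidney libraries, against 1060, 1302, 1769 and 1581 CPM in 2-kidney libraries (log2 -0.72 ± 0.22 SE, adjusted p = 0.223 by edgeR). In principal cells the groups overlapped (log2 -0.60 ± 0.30 SE, adjusted p = 0.317 by edgeR), since the 2-kidney library 1 was the lowest of 7 at 1311 CPM. Over 17 alternatives the principal cell value ranged from -0.84 without 1-kidney library 3 to -0.35 after the subtraction, and it was -0.38 without the P1117B libraries. DESeq2 called Nr3c2 in connecting tubule (adjusted p = 0.0475). Lower Nr3c2 was not particular to distal nuclei. Its log2 fold was below 0 in all 9 classes tested, with -0.66 ± 0.19 SE in endothelium and -0.66 ± 0.26 SE in the thin limb.

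Nedd4l in connecting tubule stood at 816, 916 and 845 CPM in 1-kidney libraries, against 1217, 1334, 1299 and 1208 CPM in 2-kidney libraries, without overlap (log2 -0.54 ± 0.17 SE, adjusted p = 0.188 by edgeR). The other 3 distal classes had overlapping groups and log2 folds of -0.42 (distal convoluted tubule), -0.46 (principal cells) and -0.40 (intercalated nuclei), none of them called. With the library code as a term, the values in the distal convoluted tubule and in intercalated nuclei were log2 -0.22 and -0.17. Over all 9 classes tested the log2 fold of Nedd4l was below 0, from -0.54 in connecting tubule to -0.05 in fibroblasts.

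In connecting tubule and principal cells, Hsd11b2 and Atp1b1 did not differ beyond the spread between libraries. Hsd11b2 in connecting tubule averaged 591 ± 113 CPM in 1-kidney and 544.5 ± 127 CPM in 2-kidney libraries (log2 0.15 ± 0.21 SE, adjusted p = 0.754 by edgeR), and in principal cells 349 ± 147 CPM in 1-kidney and 346 ± 76.5 CPM in 2-kidney libraries (log2 -0.03 ± 0.27 SE). Atp1b1 in connecting tubule averaged 2656 ± 230 CPM in 1-kidney and 3080 ± 271 CPM in 2-kidney libraries (log2 -0.20 ± 0.18 SE, adjusted p = 0.600 by edgeR), and in principal cells its log2 fold was -0.00 ± 0.21 SE. With SEs of this size these values do not show that the groups were alike. In the distal convoluted tubule the log2 fold of Hsd11b2 was -0.45 ± 0.56 SE, and without 2-kidney library 1 it was 0.42.

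**Figure D2:**
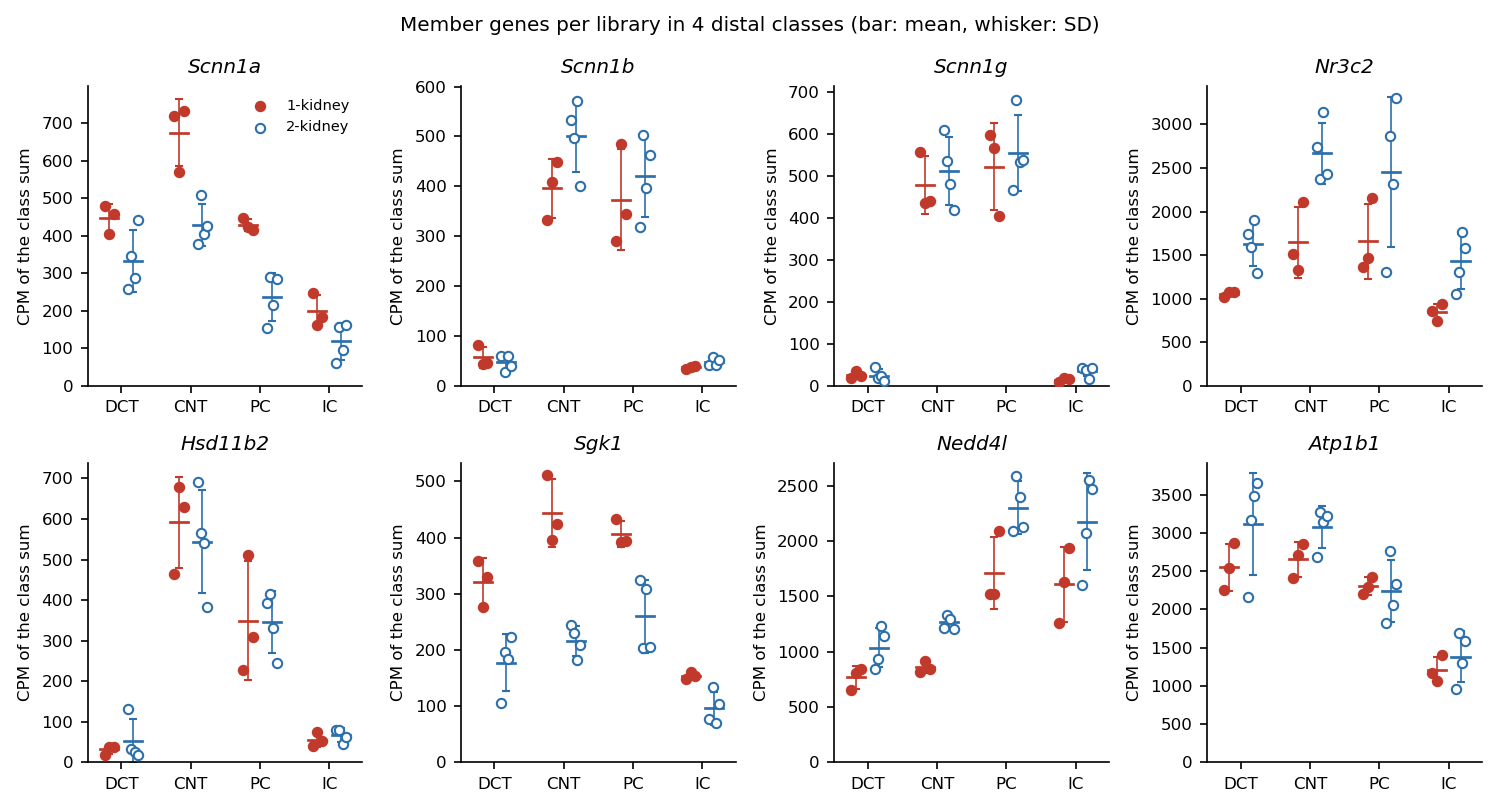
CPM of each gene (vertical axis) in the 4 distal classes (DCT, CNT, PC, IC), with a filled point per 1-kidney library at the left of each pair and an open point per 2-kidney library at the right, and mean and SD as bar and whisker. Sgk1 and Scnn1a sit higher and Nr3c2 and Nedd4l sit lower in 1-kidney connecting tubule without overlap, while the other 4 genes overlap there.

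Counting members by separation or by unadjusted p has to be read against how often other genes did the same. In connecting tubule 4 of the 8 genes had groups that did not overlap, where 13.2% of tested genes did. In intercalated nuclei it was 4 of 8, Sgk1, Scnn1a, Nr3c2 and Scnn1b, where 12% of tested genes did. Scnn1b was lower in 1-kidney libraries there, as were the principal cell markers given above, and its log2 fold of -0.32 was -0.0070 with the 8 genes among the clustering genes. In principal cells it was 2 of 8, Sgk1 and Scnn1a (background 16.2%), and in the distal convoluted tubule 2 of 8, Sgk1 and Nr3c2 (background 12.9%). With the threshold on the unadjusted p the counts were 4 of 8 in the distal convoluted tubule, connecting tubule and intercalated nuclei and 3 of 8 in principal cells, where 15%, 15.9%, 13.3% and 17.2% of genes tested passed. The median log2 fold over the 8 genes was -0.02 in the distal convoluted tubule, -0.14 in connecting tubule, -0.09 in principal cells and -0.24 in intercalated nuclei, and over all tested genes it was between -0.02 and 0.00.

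The 1-kidney difference of each gene was compared between the 4 distal classes with library as a block. None of the 8 genes was called, where 0.18% of 8869 genes were called by edgeR (726 genes passed on the unadjusted p and DESeq2 called 16). Sgk1 had an unadjusted p of 0.299 and Scnn1a of 0.222, the difference from the distal convoluted tubule being log2 0.24 for Sgk1 in connecting tubule and log2 -0.22 in principal cells. Scnn1g had the smallest unadjusted p of the 8, 0.120 (adjusted p = 0.739 by edgeR).

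**Figure D3:**
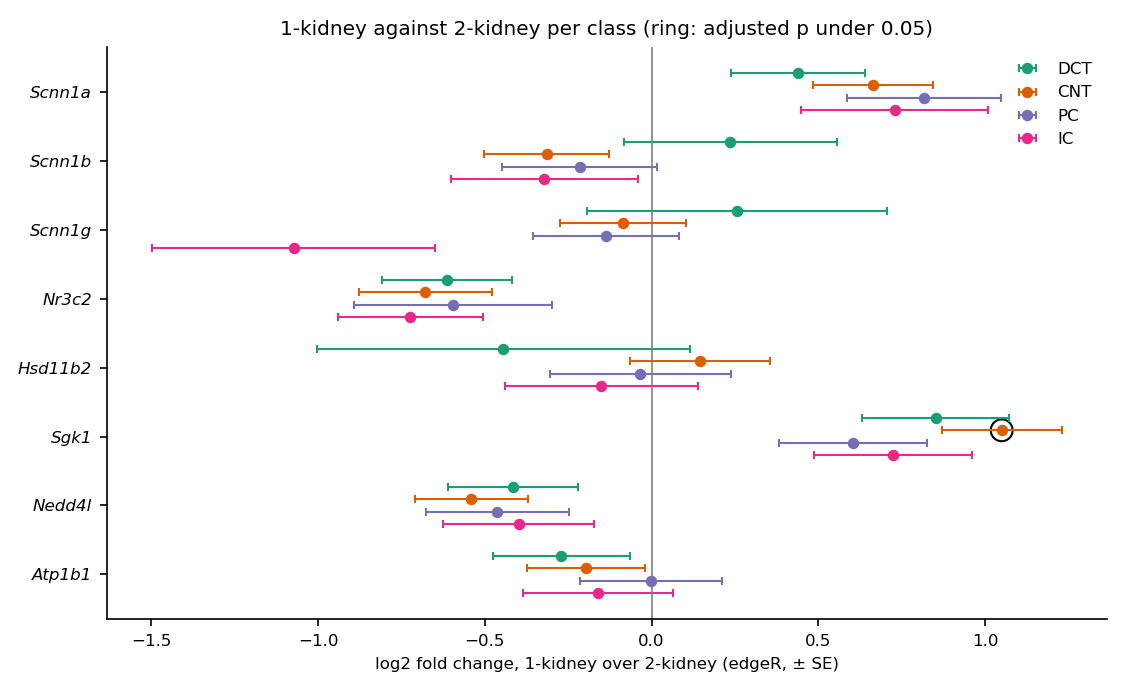
Log2 fold change of each gene, 1-kidney over 2-kidney (horizontal axis, point and SE from edgeR), in the 4 distal classes by colour; a ring marks an adjusted p under 0.05. Sgk1 and Scnn1a lie right of 0 and Nr3c2 and Nedd4l left of 0 in all 4 classes, and the ring is on Sgk1 in connecting tubule at log2 1.05.

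The folds of all genes moved with the length of the gene, which bears on the members that span long stretches. Annotated span from RefSeq was at hand for 96.3% of genes tested in connecting tubule. From the shortest to the longest quintile of genes, the median log2 fold, 1-kidney over 2-kidney, was 0.23, 0.06, 0.00, -0.08 and -0.22 in connecting tubule (Spearman rho = -0.32 across genes, which are not independent). The values at both ends were 0.20 and -0.19 in the distal convoluted tubule, 0.25 and -0.24 in principal cells and 0.19 and -0.18 in intercalated nuclei. Nr3c2 spans 344 kb and Nedd4l 333 kb, both in the longest quintile. Of the genes in that quintile, 92.3% had a higher log2 fold than Nr3c2 in connecting tubule and 84.4% a higher one than Nedd4l, so both lay below its median of -0.22 but within its spread. Sgk1, with an annotated span of 117 kb, is in the same quintile, and 0.50% of its genes had a higher fold. That span is of the whole annotated gene. The lengths transcribed from each of the Sgk1 starts shown above were not at hand, so its place by length is uncertain. Scnn1a spans 23.2 kb, and 6.35% of the genes of its quintile had a higher fold in connecting tubule. The part of gene length in the folds of single genes was not tested.

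**Figure D4:**
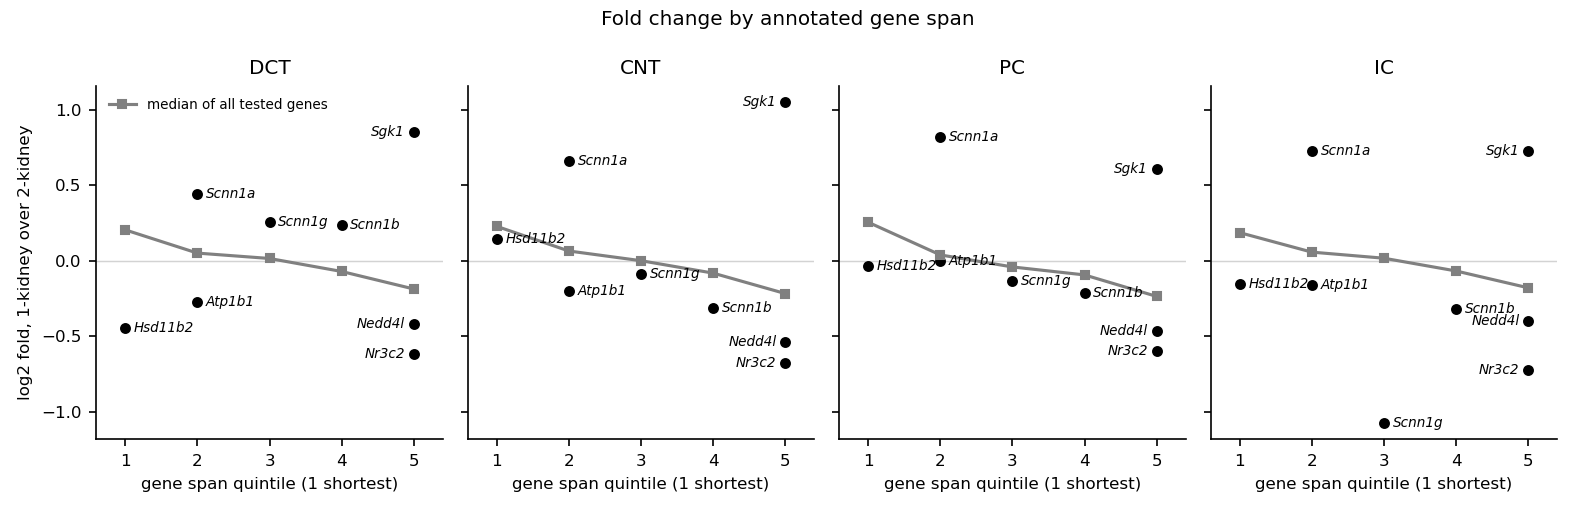
Median log2 fold of all tested genes by quintile of annotated gene span (grey line, horizontal axis from shortest to longest) and the 8 genes (black points) in the 4 distal classes. The grey line falls from left to right in each class. Nr3c2 and Nedd4l lie below it in the longest quintile, and Sgk1, placed by the span of its whole annotated gene, lies above it there.

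Of 41 other genes of the pathway none was called in any of the 4 distal classes. In connecting tubule 38 were tested, 3 were higher and 6 lower at the unadjusted threshold, where 8.3% of all tested genes were higher and 7.62% lower, and the median log2 fold was 0.11. The counts were 5 higher and 7 lower of 34 in the distal convoluted tubule (7.49% and 7.51% of all genes), 6 and 4 of 39 in principal cells (8.39% and 8.8%), and 2 and 3 of 34 in intercalated nuclei (6.61% and 6.7%).

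By role, the smallest p-values fell on a receptor co-chaperone, on regulators of sodium transport and on pump partners. Fkbp5, a steroid-induced co-chaperone of steroid receptors, stood at 355, 303 and 278 CPM in 1-kidney connecting tubule, against 32.7, 112, 119 and 225 CPM in 2-kidney connecting tubule (log2 1.32 ± 0.33 SE, adjusted p = 0.112 by edgeR). In principal cells Fkbp5 averaged 267 ± 24.8 CPM in 1-kidney and 121 ± 34.8 CPM in 2-kidney libraries (log2 1.10 ± 0.24 SE, adjusted p = 0.104 by edgeR), and in intercalated nuclei its log2 fold was 0.81 ± 0.27 SE. Klhl3, an adaptor that targets WNK kinases for degradation, had log2 folds of -0.80 ± 0.21 SE in the distal convoluted tubule and -0.88 ± 0.21 SE in intercalated nuclei (adjusted p = 0.150 and 0.149 by edgeR). Spint2, an inhibitor of channel-cleaving proteases, had log2 -0.93 ± 0.24 SE in the distal convoluted tubule (adjusted p = 0.147 by edgeR).

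The pump partners with the smallest p were members of the FXYD family, small proteins that tune the sodium pump. Fxyd4, also one of the principal cell markers, stood at 206, 159 and 376 CPM in 1-kidney principal cells, against 658, 656, 685 and 509 CPM in 2-kidney principal cells, without overlap. Its log2 fold there was -1.34 ± 0.28 SE (adjusted p = 0.104 by edgeR). Fxyd4 was also lower outside principal cells, at log2 -1.23 ± 0.54 SE in connecting tubule, -1.92 ± 0.78 SE in endothelium and -1.33 ± 0.42 SE over all retained nuclei. Fxyd2 in connecting tubule averaged 124 ± 21.3 CPM in 1-kidney and 220 ± 85.1 CPM in 2-kidney libraries (log2 -0.85 ± 0.26 SE, adjusted p = 0.184 by edgeR). Over all retained nuclei the 2 smallest p-values were those of Tsc22d3, a steroid-induced leucine zipper gene (log2 0.81 ± 0.19 SE, adjusted p = 0.162 by edgeR), and Cnksr3, a scaffold induced by aldosterone (log2 -0.50 ± 0.14 SE, adjusted p = 0.172 by edgeR).

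The share of nuclei in each class bears on the sums. Connecting tubule nuclei made up 4.99% ± 1.04 of nuclei in 1-kidney and 3.49% ± 0.408 in 2-kidney libraries, and an exact permutation test of the difference gave p = 0.0571 (two-sided, 35 splits, smallest possible p 0.0286, adjusted over 4 classes 0.114). Without the P1117B libraries the difference was 1.54 percentage points (exact permutation p = 0.2, 3 libraries against 2, smallest possible p 0.1). Distal convoluted nuclei made up 6.42% ± 1.22 in 1-kidney and 4.71% ± 0.83 in 2-kidney libraries (exact permutation p = 0.114). Principal nuclei made up 4.87% ± 2.02 in 1-kidney and 6.14% ± 1.29 in 2-kidney libraries (exact permutation p = 0.429), and intercalated nuclei 6.10% ± 0.596 in 1-kidney and 5.30% ± 0.404 in 2-kidney libraries (exact permutation p = 0.0571). Within the intercalated class the Slc26a4-high cluster took 48.7% ± 8.25 in 1-kidney and 38.4% ± 4.36 in 2-kidney libraries. The effect of that split on the summed folds of the intercalated class was not tested.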

How the data were processed

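Kidney nuclei of 7 rats were sequenced, 3 with 1 kidney and 4 with 2 kidneys. The deposited values are UMI counts per gene and barcode that the authors made with Cell Ranger 7.0, per the submitters' processing notes. They are whole numbers with no normalization. For the reference genome and gene models, names and versions were not given in the sources used here.

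A barcode was kept if it had 200 genes or more and its mitochondrial share did not pass 5%. Scrublet's automatic threshold marked at most 4 barcodes in a library, so the highest-scoring 0.8% per 1000 barcodes were removed instead (1659 in all, 2.33% to 6.22% of a library). Every retained nucleus had at least 500 UMIs. Nuclei were clustered with scanpy 1.11.5 on 2000 variable genes without the 8 genes, giving 24 clusters, of which 18 were named in 14 classes from marker lists and 6 were left unnamed (39.7% of nuclei). Counts were summed per library and class and tested with edgeR 4.0.16 (trimmed mean of M-values scaling, filterByExpr, quasi-likelihood test, Benjamini-Hochberg adjustment over all genes tested). DESeq2 1.42.0 was an alternative. Differences between classes in the 1-kidney effect were tested as an interaction with library as a block. Shares of nuclei were compared with exact permutation tests over 35 splits. The tests were tried on simulated data before use.

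The members and the gene lists were chosen with earlier results of these data known. Genes outside the 8 were named by rule: the 3 most like each gene over classes, and the 2 of the pathway list with the smallest p in each class. One gene that the first rule names is not reported here. The closing section gives the alternatives, which cover scaling, filters, doublets, class definitions, depth, the library code and leaving out libraries. Total counts limit the precision of low genes, and UMIs of a library come from 1 animal, so counting error is only part of the spread.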

Additional observations from a re-analysis of the deposited data

Results flagged for a closer look

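Among 44 sets of 4 values examined in 2-kidney libraries, 2 held a library far from the other 3, and chance flags about 1 in 20. In the distal convoluted tubule, Hsd11b2 stood at 133 CPM in 2-kidney library 1, against 18.1 to 33.2 CPM in the other 3. Without that library the log2 fold of Hsd11b2 there, 1-kidney over 2-kidney, was 0.42, where it was -0.45 with all libraries (edgeR, not called either way). Summed over all retained nuclei, Nr3c2 stood at 587 CPM in 2-kidney library 1, against 700.05 to 706 CPM in the other 3. The 1-kidney libraries lay below all 4, at 457, 367 and 544 CPM.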

How the results depend on the processing

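The added alternatives (nuclei with at least 1000 UMIs, subtraction of the profile of the high-UMI cluster, and leaving out libraries for shares of nuclei) were chosen after seeing the data. The planned bound of 500 UMIs removed no nucleus. No paired analysis was possible because replicate numbers were given in accession order and pair no samples. The number of the 8 genes called in connecting tubule, 1 with all libraries, was 3 with DESeq2 and 0 with the library code as a term, without P1117B, with classes by marker score, at 1000 UMIs or after subtraction. It was 1 in principal cells with DESeq2, 1 over all nuclei with DESeq2, and 1 in the distal convoluted tubule without a filter on low counts. Leaving out 1 library gave 0 to 1 in connecting tubule.

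Counts of all genes called moved further. DESeq2 called 26 genes in the distal convoluted tubule, 42 in connecting tubule, 159 in principal cells, 16 in intercalated nuclei and 485 over all nuclei. Without the filter edgeR called 136, 140, 421 and 111 in the 4 distal classes, and 83 in the interaction. With the library code as a term it called 1, 2 and 1 in distal convoluted tubule, connecting tubule and intercalated nuclei, and without P1117B 4, 2 and 7, and 3 in the interaction. With doublets kept the counts were 2, 21 and 1, and after subtraction 3, 0 and 1. Connecting tubule had 0 with marker scores and 0 at 1000 UMIs, and principal cells had 4 with the 8 genes among the clustering genes. Leaving out 1 library gave 0 to 90, 0 to 54, 0 to 94 and 0 to 90 genes in the 4 classes and 0 to 44 in the interaction.

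Of the log2 folds under the alternatives that keep all libraries or drop P1117B, 339 kept direction and side of the threshold, 5 gained a call, 5 lost one and 23 turned. Each of the 23 concerned a gene and class whose value with all libraries was smaller than its SE. In the distal convoluted tubule Scnn1b was -0.040 at 1000 UMIs, Scnn1g -0.18 with the library code as a term and -0.18 without P1117B, and Hsd11b2 0.053 by marker score. In connecting tubule Hsd11b2 was -0.073 with the code as a term, -0.075 without P1117B and -0.080 by marker score. In principal cells Scnn1b was 0.050 after subtraction, Scnn1g 0.063 with doublets kept, 0.044 by marker score and 0.15 after subtraction, and Hsd11b2 0.19, 0.26 and 0.18 under the same 3. Atp1b1 there was 0.0106 with relative log expression factors, 0.0110 with DESeq2, 0.046 with doublets kept, 0.12 by marker score, 0.0016 at 1000 UMIs and 0.19 after subtraction. Hsd11b2 was 0.081 in intercalated nuclei with the 8 genes among the clustering genes, and over all nuclei -0.21 with the code as a term and -0.23 without P1117B. Leaving out 1 library turned Scnn1b (-0.042 to 0.41), Scnn1g (-0.045 to 0.63) and Hsd11b2 (-0.77 to 0.42) in the distal convoluted tubule, and Scnn1g (-0.21 to 0.00087) and Hsd11b2 (-0.0052 to 0.28) in connecting tubule. It also turned Scnn1g (-0.26 to 0.017), Hsd11b2 (-0.38 to 0.17) and Atp1b1 (-0.083 to 0.13) in principal cells, and Scnn1g (-0.20 to 0.054) and Hsd11b2 (-0.050 to 0.34) over all nuclei. Sgk1, Scnn1a, Nr3c2 and Nedd4l turned in none of the 4 distal classes. The cause of these changes was not tested.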

Other observations

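In the thick ascending limb, which lies before the distal convoluted tubule, 4 of the 8 genes passed the unadjusted threshold, where 14.1% of 8597 tested genes did, and none was called by edgeR. Hsd11b2 had log2 1.04 ± 0.39 SE (adjusted p = 0.275 by edgeR) and Scnn1g log2 0.98 ± 0.37 SE (adjusted p = 0.273 by edgeR). Both were low there over the 7 libraries, with Hsd11b2 at 28.7 ± 14.7 CPM and Scnn1g at 21.5 ± 9.06 CPM.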
